A study of Mus musculus with 7 samples.

Results

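The chromatin around 9 genes for activation-induced transcription factors was examined in CD4+ T cells responding to *Nippostrongylus brasiliensis*: *Egr1*, *Egr2* and *Egr3*, *Nfatc1*, *Nfatc2* and *Nfatc3*, and *Nr4a1*, *Nr4a2* and *Nr4a3*. Members were the ATAC-seq regions that overlapped the annotated body of 1 of the genes or the 10 kb on each side of it, which gave 209 of the 113820 regions measured. Of these, 22 lay at the EGR genes, 121 at the NFAT genes and 66 at the NR4A genes. In the assay, a transposase inserts adapters into open DNA, and more insertions in a region mean that it is more accessible. The 7 libraries each held 50000 CD4+ T cells sorted from C57BL/6 reporter mice on day 8 after infection with 500 third-stage larvae. IL-4+ cells were GFP+ cells of IL-4 4get mice, in which GFP marks cells that transcribe *Il4*, and were taken from the lung (n = 3) and the lung-draining lymph node (LN, n = 2). Lung IFNγ+ cells (n = 2) were YFP+ cells of IFN-gamma GREAT mice, so the lung populations also differed in reporter line. Lungs were digested with enzymes, whereas lymph nodes were dissociated mechanically. In every lung against LN comparison, tissue and preparation thus cannot be told apart. All cells were gated as live CD3ε+ CD4+ cells without CD8, B220, NK1.1, CD11b, CD11c or Ter119. The labels do not say which mice the libraries came from, so every p-value measures the spread between these libraries only.

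T cell receptor signaling raises calcium, which activates calcineurin, and calcineurin dephosphorylates the NFAT proteins so that they enter the nucleus. Through NFAT, the ERK pathway or both, receptor signaling induces the zinc finger factors EGR1, EGR2 and EGR3 as immediate early genes. The orphan nuclear receptors NR4A1, NR4A2 and NR4A3 are induced in the same way. In T cells, EGR2, EGR3 and the NR4A factors are known for restraining activated cells, and NFATc1 and NFATc2 for the induction of cytokine genes such as *Il4* and *Ifng*.

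The libraries differed in the spread of insertions over regions, which moved with these loci and whose source was not tested. Read backwards from the deposited values, the insertions per library came to at least 14005923 to 91681969, and the interquartile range of log2 insertions per region was 1.67 to 1.75 in replicate 1 of LN IL-4+ and replicates 2 and 3 of lung IL-4+ cells and 2.91 to 3.09 in the 4 remaining libraries. These are called narrow and wide libraries here. Both IL-4+ populations held both kinds, whereas lung IFNγ+ cells held wide libraries only. All 8 promoters of T cell genes checked, among them *Cd3e*, *Cd4* and *Lck*, had accessible regions, with 28.6 to 235 normalized insertions at each in every library. No region lay at the promoters of *Cd8a*, *Ms4a1*, *Cd79a*, *Csf1r*, *Lyz2*, *Ncr1*, *Sftpc*, *Scgb1a1* or *Cdh5*, which mark CD8 T, B, myeloid, NK, epithelial and endothelial cells. Other markers of these cells did have promoter regions, with 46.4 to 79.5 normalized insertions at *Pecam1*, 9.99 to 32.5 at *Cd68*, 10.2 to 14.6 at *Epcam*, 6.07 to 12.4 at *Cdh1*, 3.71 to 7.69 at *Klrb1c*, 2.91 to 7.23 at *Cd8b1* and 0.36 to 3.12 at *Itgam*, and their part in the results was not tested. A promoter region of *Pax5*, a B cell factor, had 18.8 and 19.2 normalized insertions in LN IL-4+, 5.36 to 10.6 in lung IL-4+ and 8.00 and 10.2 in lung IFNγ+ libraries.

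Few of the 209 regions passed a test between populations. Calls needed a 3-fold difference and an adjusted p under 0.05 in limma. By this rule, 1 region was more accessible in lung IL-4+ than LN IL-4+ cells, in an intron of *Nfatc2*, where 1.05% of all regions passed in that direction. Another, in an intron of *Nr4a3*, was more accessible in lung IFNγ+ than LN IL-4+ cells, where 2.17% of all regions passed. No member was called higher in LN IL-4+ cells, against 0.695% of all regions in the comparison with lung IL-4+ and 0.862% in that with lung IFNγ+ cells. In limma's comparison of the lung populations, 0 members passed in either direction, against 0.108% of all regions with more access in IL-4+ and 0.387% with more in IFNγ+ cells. Before adjustment, 4 members had p under 0.05 and a 3-fold excess in lung IL-4+ cells, and 0 had one in lung IFNγ+ cells. By that rule 9 members were higher and 0 lower in lung IL-4+ than LN IL-4+ cells. In lung IFNγ+ against LN IL-4+ cells, 2 were higher and 2 lower. The share of all regions under that rule was not counted, so these numbers are descriptions. The called shares of members, at most 1 of 209, lay below those of all regions wherever a member was called. With voom on the rebuilt counts, the split of all called regions changed from 123 higher and 441 lower to 682 and 403 for lung IL-4+ against lung IFNγ+ cells, and from 2469 and 981 to 2345 and 2977 for lung IFNγ+ against LN IL-4+ cells.

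Without the fold minimum, 6 distinct regions passed, 1 of them in 2 comparisons. In lung IL-4+ against LN IL-4+ cells, 2 members passed higher and 2 lower, against 1.88% and 1.05% of all regions. In lung IFNγ+ against LN IL-4+ cells, 2 passed higher and 1 lower, against 3.03% and 1.16% of all regions. Between the lung populations 0 passed (limma, adjusted p below 0.05), against 0.151% of all regions with more access in IL-4+ and 0.513% with more in IFNγ+ cells, while 32 and 4 members, and 7242 and 9614 of all 113820 regions, had p below 0.05 before adjustment in those directions. A lower value in a population can mean fewer cells with the region open or less access per cell, and these cannot be told apart in bulk libraries.

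The distribution of the 209 differences also moved with the library class. The median log2 difference in density between lung IL-4+ and lung IFNγ+ cells was 0.35 over the 209 members and -0.01 over all regions, and 162 of the 209 (77.5%) lay above 0, against 49.7% of all regions. Between lung IL-4+ and LN IL-4+ cells the median was 0.11 over members, and the families split: it was 0.23 at the EGR genes, -0.12 at the NFAT genes and 0.64 at the NR4A genes, against -0.03 for all regions. For lung IFNγ+ minus LN IL-4+ cells it was 0.03 at the EGR, -0.48 at the NFAT and 0.29 at the NR4A genes, against -0.03 for all regions, and with wide libraries only it was 0.13, -0.33 and 0.45. Between the IL-4+ populations, the median over members was 0.06 within narrow and -0.01 within wide libraries, against -0.04 and -0.03 for all regions. Among wide libraries alone, the NR4A median was 0.57 for lung IL-4+ against LN IL-4+ and the NFAT median was -0.29, and among narrow libraries they were 0.44 and -0.13. Lung IL-4+ against lung IFNγ+ cells can be compared within a class only with the single wide lung IL-4+ library, and the median over members was then 0.12, against 0.01 for all regions. These comparisons share libraries and the regions of a locus lie side by side, so the medians are descriptions.

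**Figure D1:**
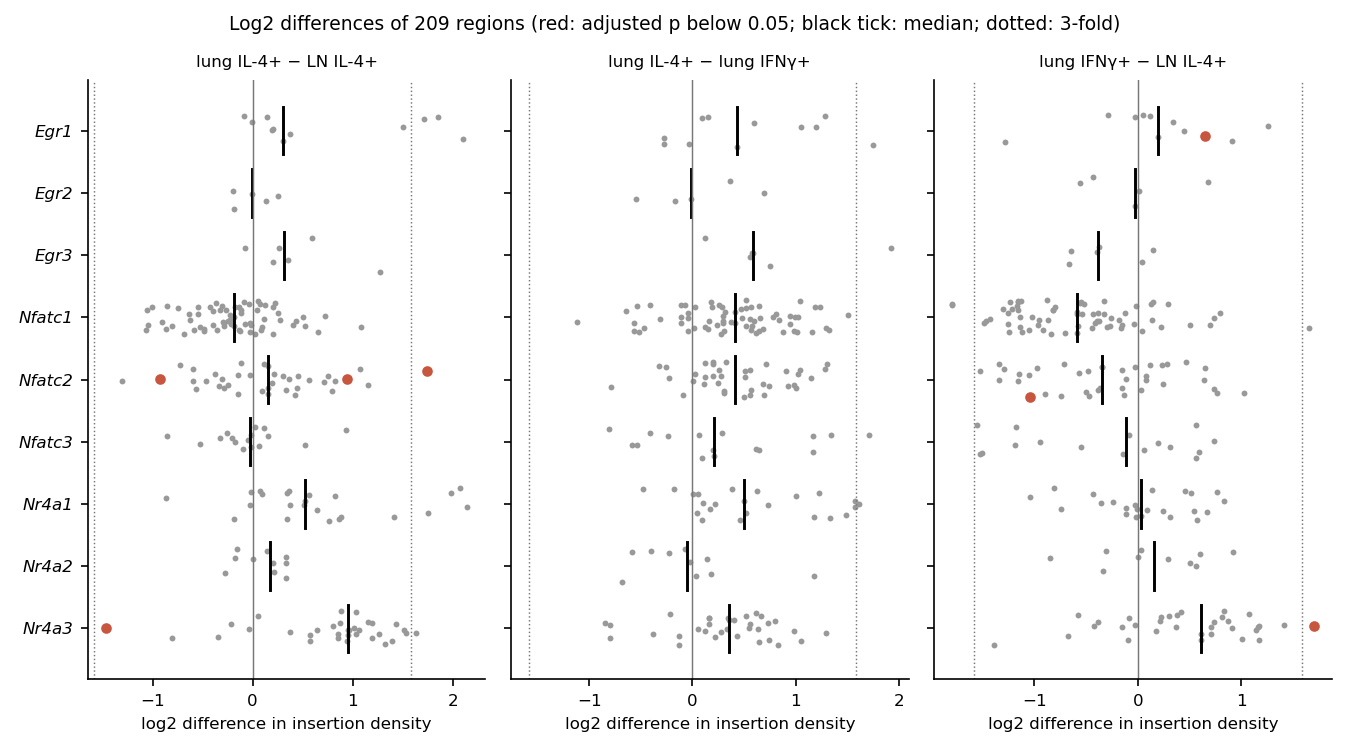
Each grey point is 1 of the 209 regions, placed by its fitted log2 difference in insertion density (x axis) and its gene (y axis), with 1 panel per comparison; black ticks are medians per gene, dotted lines mark a 3-fold difference and red points had a limma adjusted p below 0.05. The *Nr4a3* regions are centered on 0.96 in the left panel, and the middle panel holds no red point.

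At the level of whole loci, where the normalized insertions of all regions of a gene were summed, 0 of the 9 genes passed limma's test in any comparison (adjusted p below 0.05), while 0.664% and 0.417% of all 17021 loci were higher and lower in lung IL-4+ than LN IL-4+ cells, 0% and 0.0529% higher and lower in lung IL-4+ than lung IFNγ+ cells, and 1.34% and 0.811% higher and lower in lung IFNγ+ than LN IL-4+ cells. Before adjustment, p was below 0.05 for 1 locus between the IL-4+ populations, for 2 between the lung populations, both higher in IL-4+ cells, and for 0 in the remaining comparison. The share of all loci before adjustment was not counted. With array weights, 8 of the 9 loci (all but *Egr2*) passed as higher in lung IL-4+ than lung IFNγ+ cells, as did 5166 of all loci in that direction and 6762 in the other. The estimate of those weights did not converge, and it gave lung IL-4+ replicate 2 a weight of 7.48 beside 0.24 and 0.72 for the other lung IL-4+ libraries. Weights estimated gene by gene, an alternative chosen after seeing the data, were 2.56, 0.293 and 1.02 for these libraries and called 7 of the 9 loci, beside 4172 of all loci higher and 5638 lower. The sums of lung IL-4+ and lung IFNγ+ libraries did not overlap at 5 of the 9 genes, against 53.6% of all loci. For lung IL-4+ and LN IL-4+ libraries this held at 2 of the 9, against 25.6%. For lung IFNγ+ and LN IL-4+ libraries it held at 5, against 51.5%, so a lack of overlap is a description. At 6 of the 9 genes (*Egr3*, *Nfatc1*, *Nfatc2*, *Nfatc3*, *Nr4a1* and *Nr4a3*) every narrow library lay above every wide one, which held at 20.1% of all loci, and the part of this split in the locus differences was not tested.

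**Figure D2:**
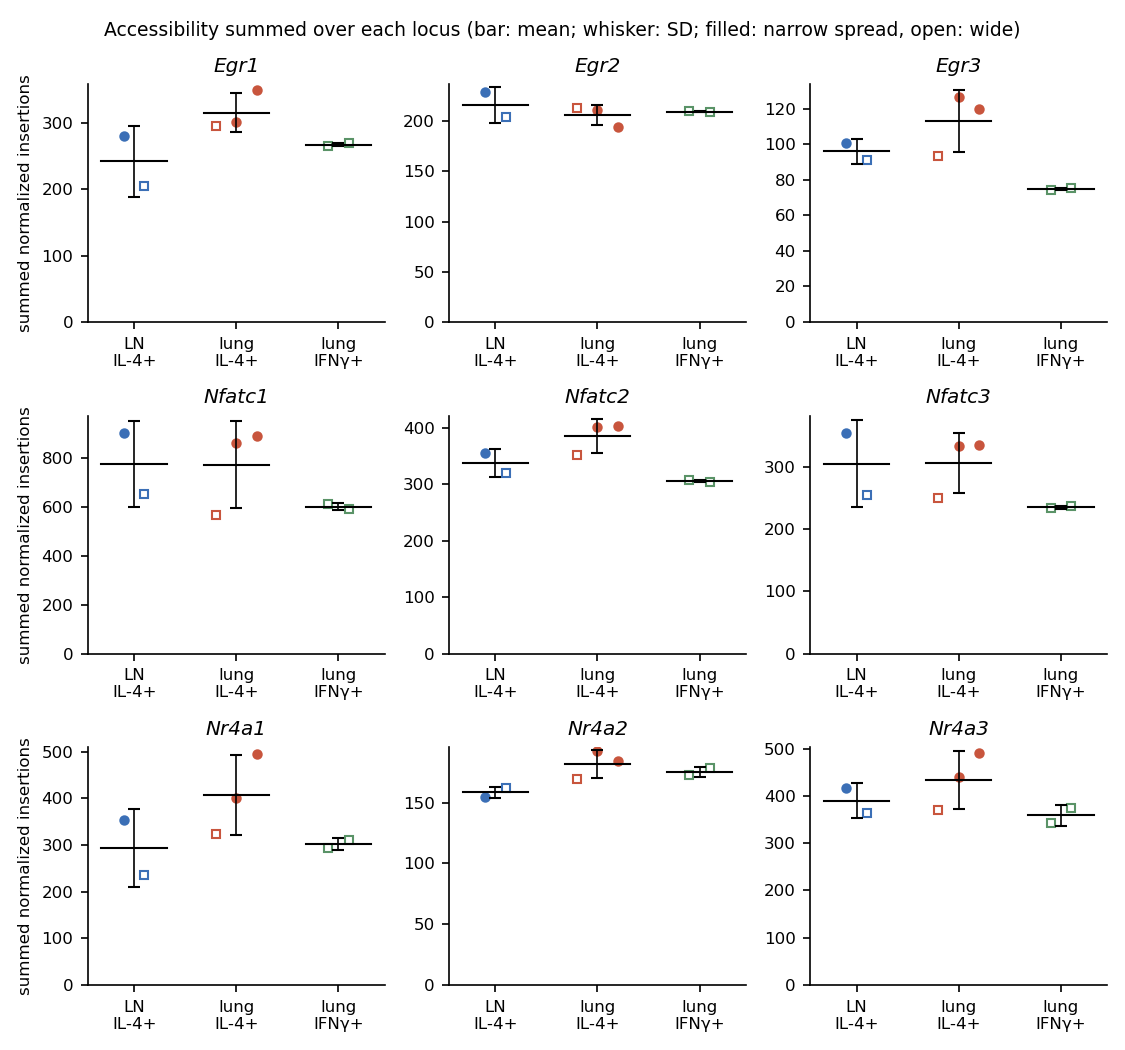
Normalized insertions summed over the regions of each gene (y axis, linear, starting at 0) are shown for the 7 libraries by population, with narrow libraries as filled circles, wide libraries as open squares, horizontal bars for means and whiskers for SD. Filled symbols lie above open ones in most panels, and *Egr2* is nearly level, from 194.5 to 229.4.

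*Egr1*, the serum- and receptor-induced immediate early member of the EGR family, held 11 regions. Its sum was 279.6 and 204.2 normalized insertions in LN IL-4+, 295.0, 301.4 and 349.7 in lung IL-4+ and 265.8 and 268.9 in lung IFNγ+ libraries. The lung IL-4+ libraries were thus all above both other populations, which overlapped each other. The log2 difference from LN IL-4+ cells was 0.40 ± 0.15 (SE, adjusted p = 0.300, limma), and from lung IFNγ+ cells 0.23 ± 0.15 (adjusted p = 0.412). The former was 0.22 within narrow and 0.53 within wide libraries, and the latter 0.14 with wide libraries only. The order was lung IL-4+, lung IFNγ+, LN IL-4+ by means of 315.4, 267.3 and 241.9, and neither neighboring pair passed the test. The sum leaned on the promoter region, which carried 50.0% of it and ranged only from 5.28 to 5.72 log2 insertions per kb.

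The most accessible *Egr1* region was not the promoter but a 471 bp region 3.43 kb upstream of the start (chr18:34856155-34856625). It held 5.83 and 5.78 log2 insertions per kb in LN IL-4+, 6.19, 6.07 and 6.26 in lung IL-4+ and 6.49 and 6.41 in lung IFNγ+ libraries. The 3 populations did not overlap, and their order was LN IL-4+, lung IL-4+, lung IFNγ+. Lung IFNγ+ exceeded LN IL-4+ cells by 0.65 ± 0.15 (adjusted p = 0.0397, limma), a call that 8 of 19 other settings kept. A further *Egr1* region lay 8.30 kb from the start, past the gene, where LN IL-4+ libraries had 0.94 and 0.95, lung IL-4+ libraries 2.60, 2.16 and 2.58, and lung IFNγ+ libraries 1.65 and 1.13. It was 1.50 ± 0.40 higher in lung IL-4+ than LN IL-4+ cells but missed the threshold (adjusted p = 0.0797, limma). Over the end of the gene, 4.51 kb from the start, a region with 3.31, 3.41 and 4.01 in lung IL-4+ and 1.66 and 2.01 in lung IFNγ+ libraries gave the smallest p between the lung populations (1.74 ± 0.53, adjusted p = 0.188, limma). LN IL-4+ libraries split there, at 2.91 in the narrow and 0.82 in the wide library.

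*Egr2*, a restraining factor of activated T cells, was the most even of the 9 loci. Its 5 regions summed to 229.4 and 203.9 in LN IL-4+, 213.3, 211.1 and 194.5 in lung IL-4+ and 210.0 and 209.3 in lung IFNγ+ libraries. All populations overlapped, the highest library was 1.18 times the lowest, and the median of this ratio over all loci was 1.62. The differences between populations were -0.07, -0.02 and -0.05 on the log2 scale, for lung IL-4+ minus LN IL-4+, lung IL-4+ minus lung IFNγ+ and lung IFNγ+ minus LN IL-4+ cells, and their 95% intervals lay between -0.31 and 0.22. The promoter region (chr10:67534865-67537902), 64.5% of the sum, held 5.40 to 5.54 log2 insertions per kb in the 7 libraries. The adjoining region 3.24 kb from the start had 3.99 and 3.69 in LN IL-4+, 3.56, 3.74 and 3.61 in lung IL-4+ and 3.25 and 3.31 in lung IFNγ+ libraries, which made lung IFNγ+ the lowest (-0.56 ± 0.24 against LN IL-4+, adjusted p = 0.244, limma).

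*Egr3*, which acts beside EGR2, had the lung difference with the smallest p of the 9 loci. Its 6 regions summed to 100.8 and 91.1 in LN IL-4+, 93.3, 126.5 and 119.9 in lung IL-4+ and 74.5 and 75.2 in lung IFNγ+ libraries. Lung IFNγ+ was below both other populations, which overlapped. The log2 difference of lung IL-4+ from lung IFNγ+ cells was 0.58 ± 0.15 (adjusted p = 0.199, limma) and was 0.32 with the wide lung IL-4+ library alone. Its promoter region spanned 4888 bp (chr14:70074103-70078990), carried 87.7% of the sum and held 4.19 and 4.04 in LN IL-4+, 3.99, 4.52 and 4.45 in lung IL-4+ and 3.73 and 3.76 in lung IFNγ+ libraries. All 6 *Egr3* regions had a difference above 0 between lung IL-4+ and lung IFNγ+ cells, with a median of 0.58.

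*Nfatc1*, whose short inducible isoform sustains NFAT activity, held the most regions, 67, of which 43 reached a mean of 5 insertions per kb in at least 1 population. Their sum was 900.8 and 651.4 in LN IL-4+, 567.2, 861.0 and 890.9 in lung IL-4+ and 611.1 and 591.7 in lung IFNγ+ libraries. The 3 narrow libraries stood at 861.0 to 900.8 and the 4 wide ones at 567.2 to 651.4, whatever the population. The difference of lung IL-4+ from LN IL-4+ cells was -0.02 ± 0.22, and that from lung IFNγ+ cells was 0.33 ± 0.22 (adjusted p = 0.419, limma) with all libraries and -0.08 with wide ones only. By region, 47 of 67 (70.1%) were lower in both lung IFNγ+ than both LN IL-4+ libraries, against 27.2% of all regions. The most accessible region, in an intron 100.88 kb from the annotated start, held 6.20 and 6.45 in LN IL-4+, 6.03, 6.00 and 5.84 in lung IL-4+ and 6.02 and 5.98 in lung IFNγ+ libraries. LN IL-4+ was the highest population there, by 0.37 ± 0.15 over lung IL-4+ cells (adjusted p = 0.242, limma). The most accessible promoter region, at an annotated start 104.5 kb from the first, ranged from 4.50 to 5.85, and its lowest and highest values were both from narrow libraries. An intronic region at 83.95 kb went the other way, with 1.79 and 1.53 in LN IL-4+, 2.82, 2.13 and 1.61 in lung IL-4+ and 3.63 and 2.99 in lung IFNγ+ libraries (1.65 ± 0.45 for lung IFNγ+ minus LN IL-4+, adjusted p = 0.0710, limma).

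*Nfatc2* encodes the NFAT protein already present in resting T cells and held 3 of the 6 regions that passed. As a locus, its 38 regions summed to 354.1 and 319.1 in LN IL-4+, 351.0, 401.3 and 403.4 in lung IL-4+ and 307.2 and 304.2 in lung IFNγ+ libraries. Lung IFNγ+ was lowest and did not overlap either other population, and the difference of lung IL-4+ from lung IFNγ+ cells was 0.33 ± 0.11 (adjusted p = 0.297, limma) and 0.20 with wide libraries only. Of its 38 regions, 33 had a difference above 0 in that comparison and 19 were higher in all lung IL-4+ than both lung IFNγ+ libraries (50.0%, against 19.4% of all regions).

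Below, 300 bases of each of these *Nfatc2* regions are given from the GRCm38 plus strand, with capitals for matches to consensus motifs searched on both strands, so that the letters behind each region can be seen. The motifs were TGGAAA for NFAT, AAAGGTCA for NR4A, GCGTGGGCG or GCGGGGGCG for EGR, TGANTCA for AP-1, AGGAAGT for ETS, and TTCAAAG or ATCAAAG for TCF; the last 3 were added after values were seen. The windows are those with the most matches in their region.
Nfatc2 +6.21 kb, chr2:168594797-168595096: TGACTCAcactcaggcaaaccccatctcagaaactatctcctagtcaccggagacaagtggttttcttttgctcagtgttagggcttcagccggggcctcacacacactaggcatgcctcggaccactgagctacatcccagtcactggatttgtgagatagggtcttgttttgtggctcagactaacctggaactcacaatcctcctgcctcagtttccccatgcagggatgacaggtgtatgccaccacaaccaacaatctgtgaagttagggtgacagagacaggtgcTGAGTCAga
Nfatc2 +26.70 kb, chr2:168575078-168575377: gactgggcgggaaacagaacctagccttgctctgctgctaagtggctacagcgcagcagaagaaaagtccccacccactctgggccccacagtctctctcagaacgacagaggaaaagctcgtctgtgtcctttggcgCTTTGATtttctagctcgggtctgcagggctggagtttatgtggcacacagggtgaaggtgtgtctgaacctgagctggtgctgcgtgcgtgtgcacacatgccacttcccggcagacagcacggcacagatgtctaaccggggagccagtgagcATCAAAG
Nfatc2 +84.75 kb, chr2:168516755-168517054: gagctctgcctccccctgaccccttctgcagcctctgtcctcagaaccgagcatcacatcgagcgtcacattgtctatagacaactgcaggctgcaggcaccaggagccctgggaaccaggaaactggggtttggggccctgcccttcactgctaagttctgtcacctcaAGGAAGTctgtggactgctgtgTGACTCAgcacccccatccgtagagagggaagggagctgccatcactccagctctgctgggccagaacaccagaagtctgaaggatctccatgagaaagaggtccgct
The region at 6.21 kb held 2 AP-1 and 3 NFAT matches, the latter outside the window, where 43.8% and 81.4% of regions of like length held at least 1. The region at 26.70 kb held 2 TCF matches, a motif in 31.2% of regions of like length, and that at 84.75 kb 1 AP-1 and 1 ETS match, in 17.3% and 16.5%.

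The first of these, a 1992 bp intronic region 6.21 kb from the start (chr2:168594448-168596439), had 2.66 and 1.99 log2 insertions per kb in LN IL-4+, 3.91, 4.27 and 4.01 in lung IL-4+ and 3.33 and 3.37 in lung IFNγ+ libraries. The 3 populations did not overlap, with lung IL-4+ highest and LN IL-4+ lowest. Lung IL-4+ exceeded LN IL-4+ cells by 1.74 ± 0.27 (adjusted p = 0.0101, limma), and by 1.49 within narrow and 1.92 within wide libraries. Lung IFNγ+ lay 1.03 ± 0.29 above LN IL-4+ (adjusted p = 0.0848) and 0.71 ± 0.27 below lung IL-4+ cells (adjusted p = 0.272). Of 19 other settings, 15 kept the adjusted p below 0.05 and 13 also kept the fold; without lung IL-4+ replicate 2 the adjusted p was 0.0725, and without LN IL-4+ replicate 2 the difference was 1.41, under 3-fold.

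The second, 921 bp at 26.70 kb (chr2:168574492-168575412), was the most accessible region of the gene and went the opposite way. It had 5.49 and 5.64 in LN IL-4+, 4.72, 4.60 and 4.60 in lung IL-4+ and 4.46 and 4.59 in lung IFNγ+ libraries, so that both lung populations lay below LN IL-4+ and overlapped each other. LN IL-4+ exceeded lung IL-4+ cells by 0.93 on the log2 scale (fitted difference -0.93 ± 0.17, adjusted p = 0.0177, limma) and lung IFNγ+ cells by 1.04 (-1.04 ± 0.18, adjusted p = 0.0121), whereas the lung populations differed by 0.11 ± 0.17. The within-class differences from LN IL-4+ were -0.89 and -0.92 for lung IL-4+ cells. Of 19 other settings, 10 kept the adjusted p below 0.05 for lung IL-4+ and 13 for lung IFNγ+ against LN IL-4+ cells.

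The third, 442 bp at 84.75 kb (chr2:168516684-168517125), had 3.06 and 2.85 in LN IL-4+, 3.77, 3.96 and 3.96 in lung IL-4+ and 3.76 and 3.62 in lung IFNγ+ libraries. Both lung populations were above LN IL-4+ cells, by 0.94 ± 0.22 for lung IL-4+ (adjusted p = 0.0493, limma) and 0.74 ± 0.24 for lung IFNγ+ (adjusted p = 0.125). The first value sat at the threshold, and 5 of 19 other settings kept it. Another intronic region, at 112.90 kb, was the *Nfatc2* region with the smallest p between the lung populations, with 4.71, 4.54 and 4.10 in lung IL-4+, 2.75 and 3.58 in lung IFNγ+ and 3.40 and 3.20 in LN IL-4+ libraries (1.29 ± 0.29, adjusted p = 0.0853, limma).

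**Figure D3:**
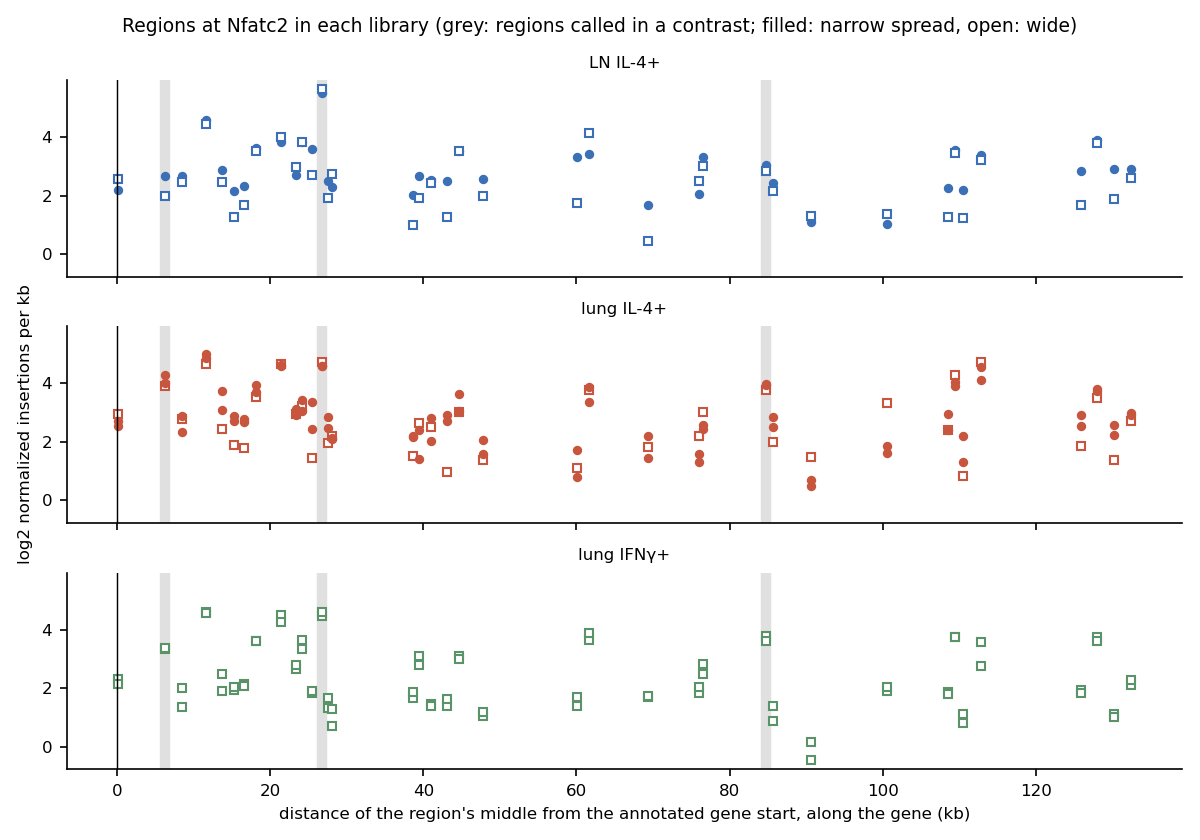
Log2 normalized insertions per kb (y axis) of the 38 *Nfatc2* regions are plotted against the distance of their middle from the annotated start (x axis, kb along the gene), with 1 panel per population and 1 symbol per library; grey bands mark the 3 regions with an adjusted p below 0.05. The band at 6.21 kb is high in the lung IL-4+ panel, and the band at 26.70 kb is high in the LN IL-4+ panel.

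*Nfatc3*, another calcineurin-regulated NFAT gene, held 16 regions, 7 of which had the start of a neighbor, *Esrp2* or *Dus2*, as the nearest start. The sum was 354.7 and 255.9 in LN IL-4+, 250.4, 334.0 and 335.3 in lung IL-4+ and 233.8 and 237.3 in lung IFNγ+ libraries. As at *Nfatc1*, the values followed the library class: narrow libraries held 334.0 to 354.7 and wide ones 233.8 to 255.9. The promoter region, 52.0% of the sum, was steady at 5.45 to 5.74 log2 insertions per kb. The smallest adjusted p of an *Nfatc3* region was 0.227 (limma), and the locus difference was 0.01 ± 0.18 between the IL-4+ populations and 0.37 ± 0.18 between the lung populations (adjusted p = 0.351, limma), which was 0.088 with wide libraries only.

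The NR4A genes are classic targets of CREB, which binds the cAMP response element, and their promoters carry the half-site TGACG repeatedly. Of the 9 genes, 6 had entries among the 32851 RefSeq promoters of GRCm38.p6 used here (250 bases before to 50 after a start). The *Nr4a1*, *Nr4a2* and *Nr4a3* entries each held 4 matches to TGACG on either strand, a number that 0.231% of promoters reach, while 20.8% hold at least 1. *Egr2* had several entries, and those with overlapping windows each held 2 such matches and a CArG box, the serum response factor site. A CArG box is in 1.63% of promoters, and 1 of the overlapping entries was taken for *Egr2*. These 4 promoters are shown, on the strand of the gene, because their shared letters are a feature that the choice of genes did not use, with matches to TGACG or the CArG box in capitals.
Nr4a1, chr15:101266596-101266895: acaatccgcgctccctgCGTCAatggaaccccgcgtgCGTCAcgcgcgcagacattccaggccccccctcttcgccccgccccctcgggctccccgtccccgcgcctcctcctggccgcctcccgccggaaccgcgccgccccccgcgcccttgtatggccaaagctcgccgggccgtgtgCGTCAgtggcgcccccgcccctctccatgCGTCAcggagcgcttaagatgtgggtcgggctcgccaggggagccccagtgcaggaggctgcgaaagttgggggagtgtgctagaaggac
Nr4a2, chr2:57123954-57124253: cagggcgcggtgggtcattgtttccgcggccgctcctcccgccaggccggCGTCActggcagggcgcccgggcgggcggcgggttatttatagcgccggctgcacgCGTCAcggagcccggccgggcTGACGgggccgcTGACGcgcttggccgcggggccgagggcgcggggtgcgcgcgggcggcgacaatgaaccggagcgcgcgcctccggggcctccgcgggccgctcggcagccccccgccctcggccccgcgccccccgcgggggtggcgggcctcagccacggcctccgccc
Nr4a3, chr4:48045055-48045354: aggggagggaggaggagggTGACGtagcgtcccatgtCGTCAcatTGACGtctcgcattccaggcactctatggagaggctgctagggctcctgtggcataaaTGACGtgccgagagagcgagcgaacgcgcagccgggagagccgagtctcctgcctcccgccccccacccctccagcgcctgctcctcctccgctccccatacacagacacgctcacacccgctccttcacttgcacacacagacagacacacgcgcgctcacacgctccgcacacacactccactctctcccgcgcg
Egr2, chr10:67537619-67537918: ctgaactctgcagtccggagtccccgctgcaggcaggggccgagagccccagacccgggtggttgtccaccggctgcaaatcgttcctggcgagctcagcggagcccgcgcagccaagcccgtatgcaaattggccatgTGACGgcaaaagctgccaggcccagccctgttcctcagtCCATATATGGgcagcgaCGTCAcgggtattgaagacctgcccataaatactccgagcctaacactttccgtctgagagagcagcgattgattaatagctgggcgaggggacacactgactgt
All 4 windows overlapped a member region that was open in every library, at 5.25 to 5.79 log2 insertions per kb for *Nr4a1*, 3.11 to 3.59 for *Nr4a2*, 3.25 to 4.32 for *Nr4a3* and 5.40 to 5.54 for *Egr2*.

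*Nr4a1*, which encodes NUR77, held 23 regions, of which 4 were nearest to the start of *Atg101*. Its sum was 353.2 and 235.0 in LN IL-4+, 323.7, 402.1 and 495.1 in lung IL-4+ and 293.4 and 311.8 in lung IFNγ+ libraries, and the highest library was 2.11 times the lowest, the widest range of the 9 loci. Lung IL-4+ overlapped LN IL-4+ but not lung IFNγ+ libraries. The log2 difference of lung IL-4+ from LN IL-4+ cells was 0.48 ± 0.22 (adjusted p = 0.384, limma), and 0.34 within narrow and 0.46 within wide libraries. That from lung IFNγ+ cells was 0.41 ± 0.22 (adjusted p = 0.364), and 0.10 with wide libraries only. With the class of the library as a covariate, an alternative chosen after seeing the data, the former was 0.39 with an adjusted p of 0.0187 (limma), in a fit that called 986 of all loci higher and 1613 lower against 113 and 71 in the fit without it. The promoter region at 12.2 kb, over the RefSeq start, had 5.52 and 5.25 in LN IL-4+, 5.68, 5.78 and 5.79 in lung IL-4+ and 5.70 and 5.69 in lung IFNγ+ libraries. The widest differences lay 22.40 kb from the annotated start, past the end of the gene, with 2.00 and 0.21 in LN IL-4+, 2.84, 3.04 and 3.87 in lung IL-4+ and 1.58 and 1.95 in lung IFNγ+ libraries. All lung IL-4+ libraries were above all others there (2.15 ± 0.53 against LN IL-4+, adjusted p = 0.0601, limma). The most accessible region, 8.00 kb upstream, was level at 5.94 to 6.42.

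*Nr4a2*, which encodes NURR1, had 10 regions and no call. Its sum was 155.1 and 161.7 in LN IL-4+, 169.7, 192.2 and 184.2 in lung IL-4+ and 172.7 and 178.4 in lung IFNγ+ libraries. Both lung populations lay above LN IL-4+ without overlap and overlapped each other, by 0.20 ± 0.10 for lung IL-4+ (adjusted p = 0.445, limma) and 0.15 ± 0.11 for lung IFNγ+ cells (adjusted p = 0.515). Among wide libraries these differences were 0.07 and 0.12. Of all loci, 25.6% and 51.5% did not overlap in these comparisons. Its region at 6.86 kb had 4.25 and 4.54 in LN IL-4+, 4.83, 4.57 and 4.39 in lung IL-4+ and 5.01 and 4.97 in lung IFNγ+ libraries, the smallest p of this gene's regions (0.60 ± 0.21, adjusted p = 0.163, limma).

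*Nr4a3*, which encodes NOR1, carried the second 3-fold call and the broadest shift. Its 33 regions summed to 417.1 and 363.6 in LN IL-4+, 369.3, 440.7 and 490.7 in lung IL-4+ and 342.3 and 375.1 in lung IFNγ+ libraries. All populations overlapped, and the locus differences were 0.15 ± 0.15, 0.27 ± 0.15 and -0.12 ± 0.16 for lung IL-4+ minus LN IL-4+, lung IL-4+ minus lung IFNγ+ and lung IFNγ+ minus LN IL-4+ cells. With wide libraries only, they were 0.023, 0.044 and -0.021. The sum hid a contrast within the gene, because 3 regions carried 76.2% of it. The most accessible one, 2.46 kb upstream, held 6.11 to 6.29 log2 insertions per kb in all 7 libraries.

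Along the rest of the gene, the regions of low density were more open in the lung. The 27 regions from 9.46 to 46.28 kb past the start, a stretch singled out after its values were seen, all had a log2 difference above 0 between lung IL-4+ and LN IL-4+ cells, from 0.37 to 1.63 with a median of 1.01. For lung IFNγ+ against LN IL-4+ cells, 24 of 27 were above 0, with a median of 0.71. Among the 86475 regions of the series with a mean below 3 log2 insertions per kb, 49.7% and 46.3% lay above 0 in those comparisons. In 25 of these regions, with a mean below 3 and without the called one, the median was 1.08 and 0.52 in LN IL-4+, 1.61, 1.61 and 2.05 in lung IL-4+ and 1.23 and 1.42 in lung IFNγ+ libraries. Every lung library was thus above both LN libraries. Of all 33 *Nr4a3* regions, 18 (54.5%) were higher in every lung IL-4+ than in either LN IL-4+ library, against 13.6% of all regions, and the median difference of the 33 was 0.78 within narrow and 0.82 within wide libraries. None of the 27 passed on its own in lung IL-4+ against LN IL-4+ cells (limma, adjusted p below 0.05), and the regions are neighbors in 1 gene, so they are not 27 independent observations.

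Another pair of *Nr4a3* regions passed, and 300 bases of each are given in the same form as those of *Nfatc2*.
Nr4a3 -5.30 kb, chr4:48039703-48040002: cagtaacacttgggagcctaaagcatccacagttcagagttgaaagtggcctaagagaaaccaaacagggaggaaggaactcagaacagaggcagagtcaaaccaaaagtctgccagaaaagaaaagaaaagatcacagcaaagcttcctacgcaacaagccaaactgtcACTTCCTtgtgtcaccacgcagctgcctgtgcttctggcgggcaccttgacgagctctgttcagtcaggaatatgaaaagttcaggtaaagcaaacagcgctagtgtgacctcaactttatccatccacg
Nr4a3 +30.35 kb, chr4:48075356-48075655: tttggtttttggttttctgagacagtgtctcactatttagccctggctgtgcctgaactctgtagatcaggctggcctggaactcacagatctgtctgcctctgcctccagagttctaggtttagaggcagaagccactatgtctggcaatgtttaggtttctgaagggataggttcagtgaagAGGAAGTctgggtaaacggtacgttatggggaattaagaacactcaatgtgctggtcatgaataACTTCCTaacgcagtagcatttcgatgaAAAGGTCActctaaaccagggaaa
The upstream region held 1 ETS match, a motif in 21% of regions of like length. The intronic one held 2 ETS matches and 1 AAAGGTCA, the site that NR4A receptors bind as monomers. Of regions of like length, 15.4% hold the ETS and 2.15% the NR4A motif, and binding at these sites was not tested.

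The intronic region, 401 bp at 30.35 kb (chr4:48075306-48075706), had 1.96 and 2.13 in LN IL-4+, 2.95, 2.97 and 2.77 in lung IL-4+ and 3.72 and 3.76 in lung IFNγ+ libraries. The populations formed 3 steps without overlap. Lung IFNγ+ exceeded LN IL-4+ cells by 1.70 ± 0.28 (adjusted p = 0.00989, limma), and lung IL-4+ lay between, 0.85 ± 0.26 above LN IL-4+ (adjusted p = 0.119) and 0.85 ± 0.26 below lung IFNγ+ cells (difference -0.85, adjusted p = 0.188). Of 19 other settings, 15 kept the adjusted p below 0.05. Without lung IFNγ+ replicate 1 or 2, which left 1 library in that population, the difference was 1.72 and 1.68. Depth at this region was 57 to 470 rebuilt insertions per library. The stronger region just before it, at 29.85 kb, showed 1.16 in the same comparison with an adjusted p of 0.0819 (limma), and 0.50 with wide libraries only.

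The upstream region, 446 bp at -5.30 kb (chr4:48039630-48040075), was the one of this pair that favored LN IL-4+ cells. It had 5.06 and 5.24 in LN IL-4+, 3.44, 4.02 and 3.57 in lung IL-4+ and 4.28 and 4.68 in lung IFNγ+ libraries, again 3 groups without overlap. Lung IL-4+ cells were lower than LN IL-4+ cells by 1.47 on the log2 scale (-1.47 ± 0.23, adjusted p = 0.0112, limma), just under the 3-fold minimum of 1.585 (log2), and the within-class differences were -1.26 and -1.80. Of 19 other settings, 16 kept the adjusted p against LN IL-4+ cells below 0.05. Against lung IFNγ+ cells the difference was -0.80 ± 0.23 (adjusted p = 0.170, limma). *Nr4a3* thus held both regions that were lower and regions that were higher in the lung. Of its 33 regions, 2 were lower in every lung IL-4+ than in either LN IL-4+ library (6.06%, against 14.3% of all regions). In both lung IFNγ+ libraries, 4 were lower than in either LN IL-4+ library (12.1%, against 27.2%).

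**Figure D4:**
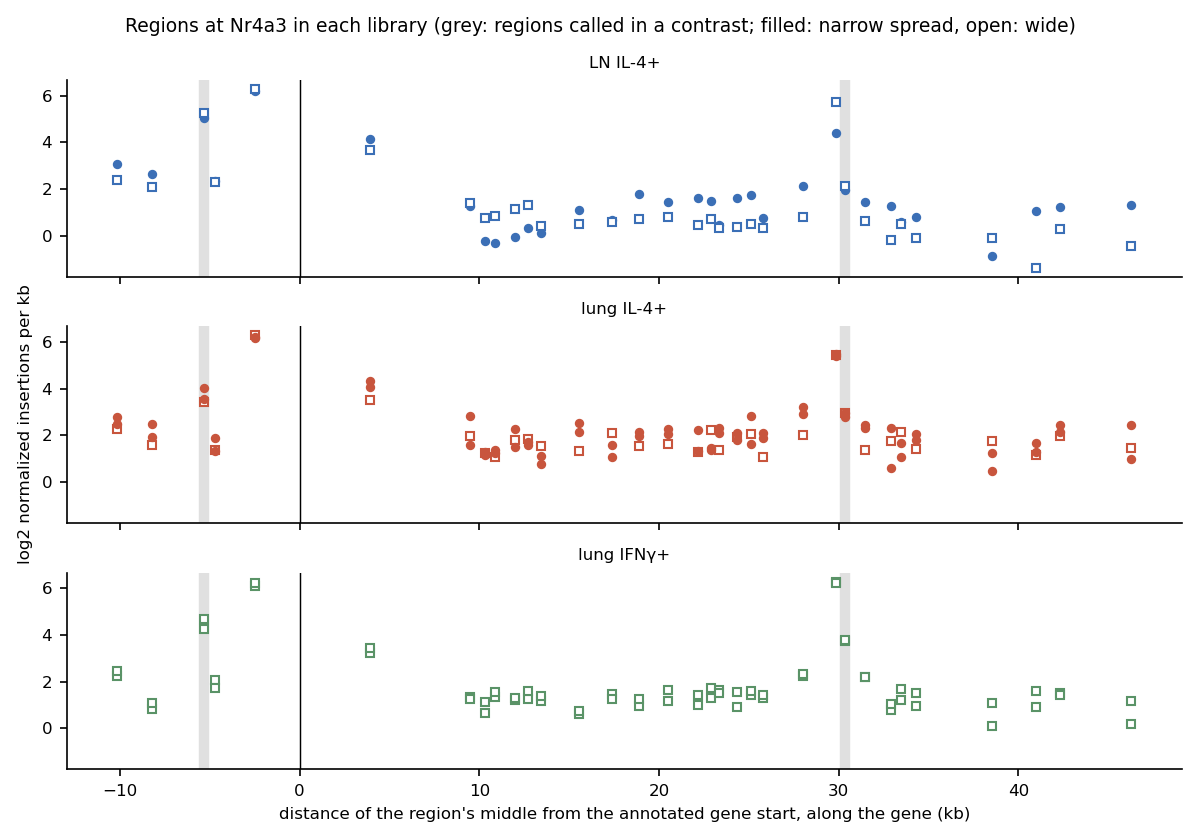
Log2 normalized insertions per kb (y axis) of the 33 *Nr4a3* regions are plotted against distance from the annotated start (x axis, kb along the gene) as for *Nfatc2*; grey bands mark the called regions at -5.30 and 30.35 kb. The low regions past 9.46 kb lie mostly between 0 and 2 in the LN IL-4+ panel and higher in the lung IL-4+ panel, and the region at -2.46 kb is level.

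**Figure D5:**
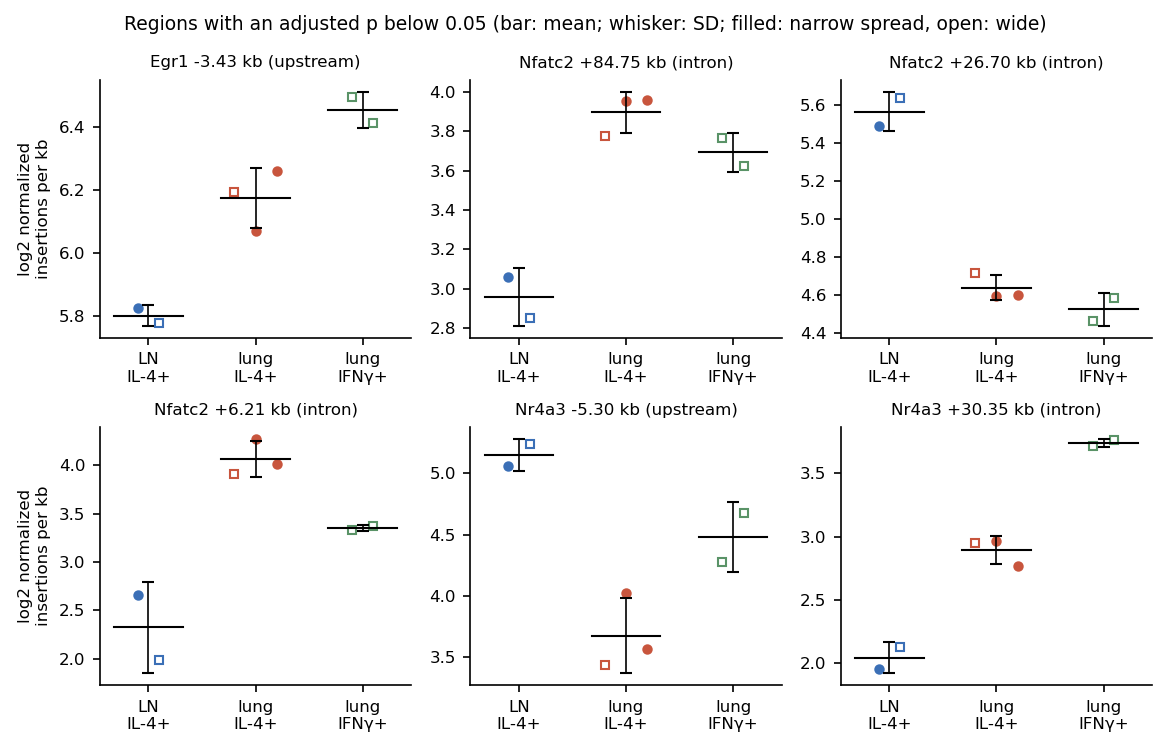
The 6 regions with an adjusted p below 0.05 in at least 1 comparison are shown by library (y axis, log2 normalized insertions per kb, a separate range in each panel not starting at 0), with bars for means and whiskers for SD. In 4 panels both lung populations lie above LN IL-4+, and at *Nfatc2* +26.70 kb and *Nr4a3* -5.30 kb both lie below it.

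The binding motifs of the 3 families were also read across the whole series. An EGR match was in 2764 regions (2.43%), an NFAT match in 50600 (44.5%) and an NR4A match in 4269 (3.75%), and of the 209 members 7, 105 and 6 held them. Regions with an EGR match were called rarely, 0.109% higher and 0.217% lower in lung IL-4+ than LN IL-4+ cells against 1.05% and 0.695% of all regions, and their median GC content was 60.6% against 46.9%. Regions with an NFAT match were called at 1.03% and 0.808%, close to all regions. Those with an NR4A match were called higher in lung IL-4+ than LN IL-4+ cells at 1.57% and lower at 0.492%, and their median difference was 0.10. In lung IFNγ+ against LN IL-4+ cells, their shares were 2.08% and 0.773%, beside 2.17% and 0.862% of all regions. Motif-bearing regions were longer (median 1242, 633 and 758 bp for EGR, NFAT and NR4A against 486.5 bp), and the part of length and GC content in these shares was not tested.

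The patterns of the 9 loci over the 7 libraries had close matches elsewhere. By Pearson's r of log2 locus sums over 7 libraries, among genes that share no region with the member, the most alike were *Plin3* (0.987) for *Egr1*, *Tgm7* (0.987) for *Egr2*, *4933430I17Rik* (0.988) for *Egr3*, *Fgfr3* (0.995) for *Nfatc1*, *Ier2* (0.996) for *Nfatc2*, *Gstp2* (0.997) for *Nfatc3*, *Podnl1* (0.992) for *Nr4a1*, *Zfp1* (0.962) for *Nr4a2* and *Ly6g6e* (0.997) for *Nr4a3*. The second matches were *Nat9*, *Kdm4b*, *Rhobtb2*, *Cand2*, *Jak2*, *B4galnt1*, *Anxa6*, *Chd7* and *Gimap8*, at 0.956 to 0.996. These are the highest of 17021 loci over 7 points that share a split between narrow and wide libraries, and are given as descriptions only. At *Ier2*, itself an immediate early gene, the sums were 192.0 and 148.5 in LN IL-4+, 176.8, 250.6 and 255.5 in lung IL-4+ and 137.1 and 138.8 in lung IFNγ+ libraries, the same order as at *Nfatc2*.

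Around the members, 63 other genes of the pathway in 4 lists were read at the same loci, and 61 held regions. The share of all loci with p below 0.05 before adjustment (limma) was not counted, so the unadjusted counts of these lists are descriptions. Of 15 calcium and calcineurin genes, which act above NFAT, 0 loci passed in any comparison (limma, adjusted p below 0.05), and 3, 2 and 2 had p below 0.05 before adjustment. They held 8 regions called higher and 2 lower in lung IL-4+ than LN IL-4+ cells of 376, where 1.05% and 0.695% of all regions were, among them 5 higher at *Itpr1*, the calcium channel of the endoplasmic reticulum, and 2 at *Ppp3ca*, the catalytic subunit of calcineurin. In lung IFNγ+ against LN IL-4+ cells, 8 were higher and 2 lower, beside 2.17% and 0.862% of all regions. Between the lung populations 1 was higher and 3 were lower in lung IL-4+ cells, beside 0.108% and 0.387% of all regions. Of the NFAT inhibitors and kinases, 0 of 11 loci passed (0, 0 and 1 before adjustment). Of their 145 regions, 1 was called lower in lung IL-4+ than LN IL-4+ cells, beside 0.695% of all regions. It lay at *Rcan1*, the feedback inhibitor of calcineurin. Another 2 were called higher in lung IFNγ+ than LN IL-4+ cells, beside 2.17% of all regions, at the kinase genes *Dyrk1a* and *Csnk1a1*.

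Among kin and co-regulators, 1 of 10 loci passed, as lower in lung IFNγ+ than LN IL-4+ cells, where 0.811% of all loci did. *Egr4*, the remaining EGR gene, summed to 30.3 and 39.3 in LN IL-4+, 27.8, 26.4 and 22.9 in lung IL-4+ and 17.1 and 17.3 in lung IFNγ+ libraries, and the last were lower than LN IL-4+ cells by 1.01 on the log2 scale (-1.01 ± 0.19, adjusted p = 0.0433, limma). The call held in 7 of 19 other settings. With 2 populations fitted at a time or replicate number as a block it was lost, and 0 of all 17021 loci passed. It was also lost without lung IL-4+ replicate 2 or 3, and without either lung IFNγ+ library, which leaves 1 library in that population. None of the 4 *Egr4* regions was called by itself. The other 9, among them the EGR co-repressors *Nab1* and *Nab2* and *Srf*, did not pass, although *Elk4*, an ETS factor that binds with serum response factor, held 2 regions called lower in each lung population than LN IL-4+ cells. The list held 79 regions, and 0.695% and 0.862% of all regions were called lower in lung IL-4+ and lung IFNγ+ than LN IL-4+ cells.

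Among 25 target genes, 1 locus was higher and 1 lower in lung IL-4+ than LN IL-4+ cells, and 2 were higher and 2 lower in lung IFNγ+ than LN IL-4+ cells, while 0 passed between the lung populations (7 before adjustment). Of all loci, 0.664% and 0.417%, 1.34% and 0.811%, and 0% and 0.0529% passed as higher and lower in these 3 comparisons, in that order. *Havcr2*, which encodes the inhibitory receptor TIM-3, was higher in both lung populations. It summed to 41.1 and 46.4 in LN IL-4+, 94.1, 99.3 and 86.7 in lung IL-4+ and 102.7 and 98.5 in lung IFNγ+ libraries (1.10 ± 0.12, adjusted p = 0.0173, and 1.20 ± 0.13, adjusted p = 0.00961, limma). *Il21*, a cytokine of follicular helper T cells, had 35.5 and 39.2 in LN IL-4+ and 21.3, 19.0 and 21.9 in lung IL-4+ libraries (-0.85 ± 0.15, adjusted p = 0.0477, limma). In lung IFNγ+ against LN IL-4+ cells, *Fasl*, the death receptor ligand, was higher by 1.47 ± 0.18 (adjusted p = 0.0134, limma), with 110 and 123 against 35.3 and 50.4. *Il4* was lower by 1.37 (-1.37 ± 0.23, adjusted p = 0.0266, limma), with 39.6 and 54.4 against 133.8 and 106.9, and its transcription is what the reporter of the IL-4+ cells marks. *Tox2*, a factor of follicular helper and exhausted T cells, was lower by 0.69 (-0.69 ± 0.12, adjusted p = 0.0348, limma), with 147.6 and 154.9 against 255.6 and 231.2. These calls depended on the setting. Of 19 other settings, 12 kept *Havcr2* in lung IL-4+ and 14 in lung IFNγ+ cells, 12 kept *Fasl*, 9 *Tox2*, 7 *Il4* and 3 *Il21*, and none of these differences changed sign. Every lung IFNγ+ call was lost with 2 populations fitted at a time or replicate number as a block, where 0 of all 17021 loci passed. Those calls were also lost without either lung IFNγ+ library, which leaves 1 library in that population and is not read as a trait of these genes. *Havcr2* in lung IL-4+ cells was lost without lung IL-4+ replicate 2 or 3, where 3 of all loci were called higher in each fit, against 113. It was also lost without either lung IFNγ+ library, and *Il21* was lost with any of the 7 libraries left out. The locus differences of the members themselves, none of which passed, ran from -0.36 to 0.58 over the 3 comparisons.

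The choice of 10 kb set which regions counted. The gene bodies alone held 152 regions and 25 kb on each side 249. The member farthest from its gene, 9.85 kb from the *Nr4a1* body, had values from 0.00 to 2.05 log2 insertions per kb, and the nearest region left out, 10.24 kb from the *Nfatc3* body, had 3.91 to 4.69.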

How the data were processed

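ATAC-seq insertions were analysed in 7 libraries of 3 populations, which were 2 of LN IL-4+, 3 of lung IL-4+ and 2 of lung IFNγ+ cells. The authors aligned reads to GRCm38/mm10 (Bowtie2 2.3.2), called summits per replicate (MACS2 2.1.1), merged windows around them into 113820 regions and applied voom (limma 3.38.3, R 3.5.1), so that the deposited values are log2 normalized insertions per kb, scaled to library size; versions are from the submitters' processing notes. Gene bodies came from GENCODE M21 and promoters lay within 1 kb of an annotated start. Members and lists were chosen with earlier results of these data known. All regions, and all 17021 protein-coding loci as log2 sums of normalized insertions over the gene and 10 kb on each side, were fitted in limma 3.58.1 (R 4.3.3) with 1 mean per population and a variance trend, with Benjamini-Hochberg adjustment per comparison. Python 3.11.15, numpy 2.4.6, pandas 2.3.3 and matplotlib 3.10.9 were used for the remaining steps. The fits were tested on simulated data. Insertions were rebuilt as the rank of tied values in a library, which is a lower bound, and libraries were classed as narrow or wide by the interquartile range of log2 rebuilt insertions. Named regions were every call, the most accessible promoter region of each gene and its region of smallest p per comparison, and values shown for other regions were chosen after they were seen. Likeness took the 2 loci with the highest Pearson's r. Alternatives were other scalings, filters, weights, covariates, thresholds and flanks, and each library left out. A marker of the fixed list is not reported here.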

Additional observations from a re-analysis of the deposited data

How the results depend on the processing

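The counts of called members are small, so most settings that moved them did so by 1 or 2 regions. Of the main counts, 1 member was higher in lung IL-4+ than LN IL-4+ cells. It became 2 without a fold minimum, with quantile normalization, with voom on the rebuilt counts and with GC correction, 0 with a pseudocount of 1 and without the variance trend, and 4 with the library class as a covariate, an alternative chosen after seeing the data. Without the variance trend, 0 of all 113820 regions were called in that comparison. With the class covariate, all called regions went from 1191 higher and 791 lower to 2436 and 1580. Without lung IL-4+ replicate 2, they went to 250 and 125. Fits without either LN IL-4+ library leave 1 library in that population. Their member counts, given next, are not read as a trait of the members. Leaving out 1 library gave 0 to 6, with 6 when LN IL-4+ replicate 1 was left out and 0 when replicate 2 of either IL-4+ population was. The 0 members higher in LN IL-4+ became 1 at 2-fold and 2 without a fold minimum, and 0 to 1 with 1 library left out (1 without lung IL-4+ replicate 2). The 1 member higher in lung IFNγ+ than LN IL-4+ cells became 0 with a pseudocount of 1 and 2 without a fold minimum, with GC correction, with array weights and with the class covariate. Without lung IL-4+ replicate 1 it became 2, while all called regions went from 2469 higher and 981 lower to 2803 and 1293. It also moved without LN IL-4+ replicate 2 or either lung IFNγ+ library. Those fits leave 1 library in a population and are not read as a trait of the members. In the other direction of that comparison, 0 became 1 at 2-fold, without a fold minimum and with the class covariate. That count also moved without LN IL-4+ replicate 2, which left 1 library in its population. Between the lung populations, 0 members higher in lung IL-4+ cells became 2 with voom on the rebuilt counts and 1 with 2 populations at a time. Array weights gave 8 members, beside 3121 higher and 3440 lower of all regions, against 123 and 441. The member count also moved without either LN IL-4+ library, which left 1 library in that population. Of the loci, 0 became 8 with array weights, whose estimate for loci did not converge. Weights estimated gene by gene, also chosen after seeing the data, gave 7 loci. With the class covariate, 0 loci higher in lung IL-4+ than LN IL-4+ cells became 2 (*Egr1* and *Nr4a1*), while all loci called went from 113 higher and 71 lower to 986 and 1613.

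The labels do not say whether equal replicate numbers mean a shared mouse. Deviations of same-numbered libraries correlated at -0.542 and -0.297 for LN and lung IL-4+, 0.057 and 0.057 for LN IL-4+ and lung IFNγ+, and -0.015 and -0.014 for the lung populations. Same-numbered LN and lung IL-4+ libraries were of opposite class, narrow and wide, so these values cannot show whether they were paired. With 2 libraries in a population the deviations mirror each other, so both values of 0.057 are 1 result. With the replicate block, alone or with GC correction, the called members were 0 in both comparisons with LN IL-4+ cells. Between the IL-4+ populations, 0 of all 113820 regions were called. In lung IFNγ+ against LN IL-4+ cells, the block called 468 of all regions higher and 88 lower, against 2469 and 981 without it. With GC correction as well, it called 914 and 244. The replicate block turned the *Egr2* locus to 0.018 between the lung populations and *Nfatc3* to -0.059 between the IL-4+ populations.

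Changes of sign occurred in the region and locus differences below, none of which passed the test. At *Egr2*, the region at 13.17 kb became 0.019 with GC correction and 0.052 with the replicate block and GC correction together. Its locus became 0.023, 0.020 and 0.0037 with median centring in the 3 comparisons, and between the lung populations 0.00044 with array weights, 0.030 for the gene body only and 0.065 as mean log2 density. For lung IFNγ+ minus LN IL-4+ it became 0.029 with quantile normalization. *Nfatc1* became 0.077 with median centring, 0.16 with array weights, 0.14 with gene-by-gene weights and 0.019 with 25 kb on each side between the IL-4+ populations, and -0.010 with quantile normalization and -0.039 with the class covariate between the lung populations. *Nfatc3* between the IL-4+ populations became -0.071 with quantile normalization, -0.015 with 25 kb, -0.045 as mean log2 density and -0.061 with the class covariate. *Nr4a2* between the lung populations became -0.0047 with quantile normalization and -0.046 as mean log2 density. *Nr4a3* for lung IFNγ+ minus LN IL-4+ became 0.45 as mean log2 density and 0.017 with the class covariate. With 1 library left out, the locus differences for lung IFNγ+ minus LN IL-4+ ran from -0.064 to 0.39 at *Egr1*, -0.13 to 0.040 at *Egr2* and -0.22 to 0.36 at *Nr4a1*. Between the IL-4+ populations they ran from -0.15 to 0.016 at *Egr2*, -0.25 to 0.22 at *Nfatc1* and -0.22 to 0.25 at *Nfatc3*, and between the lung populations from -0.049 to 0.018 at *Egr2*. *Fasl*, *Tox2* and *Il4* also lost their calls without lung IL-4+ replicate 2, *Tox2* and *Il4* without replicate 3 or LN IL-4+ replicate 1. The cause of these changes was not tested. Leaving a library out left some populations with 1 library, which the fit assumes to vary like the others. With 2 or 3 libraries per population and wide libraries only in lung IFNγ+ cells, comparisons with that population rest on few libraries of like class. Another scaling moved the split of all loci for lung IL-4+ against LN IL-4+ cells from 113 higher and 71 lower to 147 and 49 with median centring.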
